A study of Mus musculus with 18 samples.

Results

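The comparison described here set kidneys of TIMP2-/- mice against kidneys of TIMP3-/- mice, all taken 3 days after unilateral ureteral obstruction (UUO), an operation in which the right ureter is tied off so that urine backs up into the kidney on that side. Its members were 6 of the 18 arrays of the study, chosen by the titles of the labels: 3 from TIMP2-/- UUO and 3 from TIMP3-/- UUO. Context came from 3 WT UUO, 3 TIMP2-/- sham and 3 TIMP3-/- sham arrays, and for Malat1 also from 3 WT sham arrays. Sham means the same surgery without tying the ureter. All mice carried the C57BL/6 strain label. Their age, their sex, the construction of each null allele and whether the genotypes were littermates are not stated by the labels. Of the sex-linked genes, the X-linked Xist was at 35.4 to 64.9 on the 9 obstructed arrays, and the Y-linked Eif2s3y had 194, 179.7 and 106 in TIMP2-/- UUO, against 281, 1101 and 137 in TIMP3-/- UUO and 129, 183 and 140.5 in WT UUO. TIMP3-/- UUO 2 stood apart on Eif2s3y, and none of the 4 sex-linked genes measured was called. The arrays were Affymetrix mouse expression arrays hybridised with total RNA of the operated kidney, and the labels call the samples biological replicates. Of 22690 probe sets, the 22626 that were not controls were all tested, and they stood for 12393 genes.

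TIMP2 and TIMP3 are members of the family of tissue inhibitors of metalloproteinases, secreted proteins that block the enzymes which cut the extracellular matrix. TIMP2 also forms a complex with MMP14 that brings the MMP2 precursor to its activator, whereas TIMP3 stays bound to the matrix and inhibits ADAM proteases too, among them ADAM17, which releases TNF from the cell surface. Obstruction of the ureter injures the tubular epithelium, which loses its transport and metabolic genes, and it expands the interstitium with fibroblasts, inflammatory cells and collagen.

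Genes of tubular transport and metabolism were higher in TIMP2-/- UUO than in TIMP3-/- UUO, and genes of the interstitial matrix and of smooth muscle were lower. In all, 930 genes passed the test, which is 7.5% of the 12393, with 707 higher (5.7%) and 223 lower (1.8%) in TIMP2-/- UUO. The test was limma's moderated test on log2 intensity in a model with the means of all 6 groups, and a gene passed, or was called, at a Benjamini-Hochberg adjusted p under 0.05 over all 22626 probe sets. A log2 difference below is TIMP2-/- UUO minus TIMP3-/- UUO, so a positive one means higher in TIMP2-/- UUO, and its error is the standard error (SE) of that fit. The median log2 difference of all genes was 0.105. Of the 930 genes, 918 had arrays that did not overlap between the groups, a separation that 31.1% of all genes showed (21.1% higher and 9.99% lower). Counted by probe sets, 1597 of 22626 passed (7.06%).

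How many genes passed depended on single arrays. Without TIMP2-/- UUO 1, 2 or 3 the count was 238, 294 and 46 genes, and without TIMP3-/- UUO 1, 2 or 3 it was 75, 66 and 3280. Leaving out any of the other 12 arrays gave between 548 and 1528. The direction of all 930 genes was the same in each of these 18 fits, which was largely fixed in advance. Those other 12 arrays do not enter the difference. For the 918 genes whose arrays did not overlap, leaving out any single array cannot turn it. A fit to the 6 obstructed knockout arrays alone called 11 genes. Replicates within TIMP3-/- UUO differed more than within TIMP2-/- UUO, with a median SD of log2 intensity per gene of 0.264 against 0.179, and 0.201 in WT UUO. On the first principal component of the 9 obstructed arrays, which held 56.7% of the variance, the TIMP2-/- arrays lay at -15.1, -14.9 and -45.2 and the TIMP3-/- arrays at 38.6, 62.9 and -5.4. TIMP3-/- UUO 3 was thus the array of its group nearest to TIMP2-/- UUO, and TIMP3-/- UUO 2 the farthest. WT arrays spread between them, at -9, 23.5 and -35.5, and WT UUO 2 had an intensity of 28106 for the liver gene Alb, and the other WT UUO arrays had 72.7 and 254. Arrays have no sequencing depth, so their number limits the precision. With 3 arrays a group, the smallest p of an exact permutation test (2-sided) is 0.1.

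**Figure D1:**
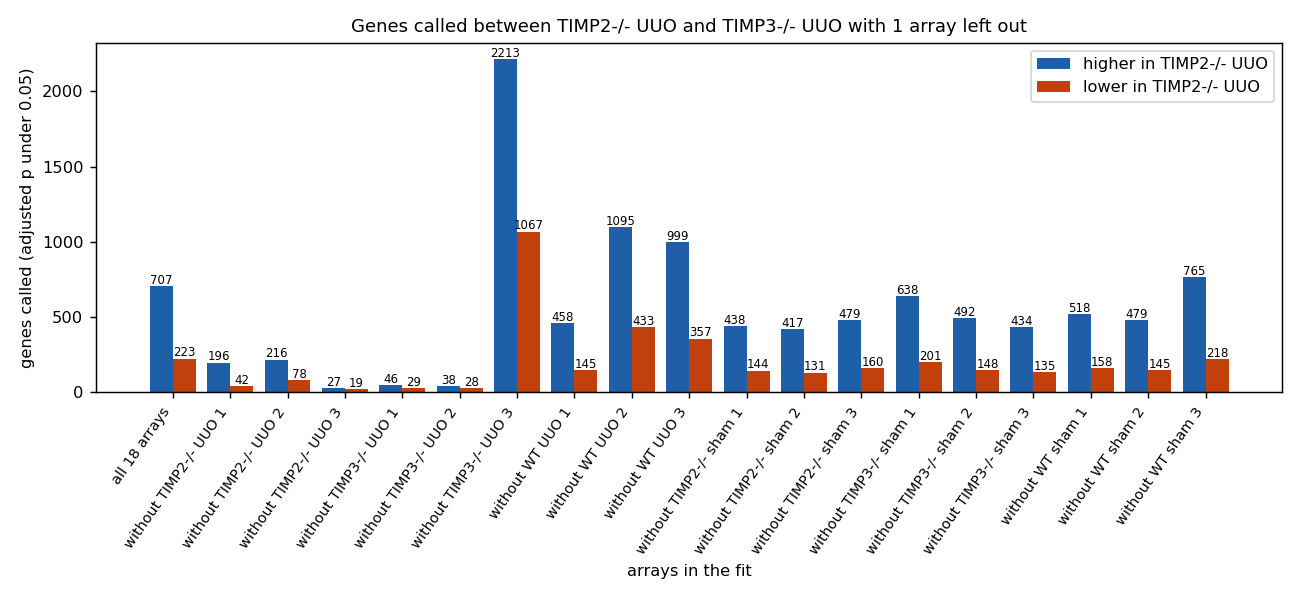
Number of genes called between TIMP2-/- UUO and TIMP3-/- UUO (vertical axis, genes) in the fit to all 18 arrays and in the 18 fits that each left out 1 array (horizontal axis). Blue bars are genes higher and orange bars genes lower in TIMP2-/- UUO: 707 and 223 with all arrays, 27 and 19 without TIMP2-/- UUO 3, and 2213 and 1067 without TIMP3-/- UUO 3.

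The targeted genes followed the labels. Timp3 had intensities of 4130, 4585 and 3484 in TIMP2-/- UUO, against 35.1, 40.5 and 35.1 in TIMP3-/- UUO, with 5274, 5056 and 4260 in WT UUO. In TIMP3-/- UUO every value lay under 56.9, the lowest 25th percentile of intensity of any array, so the log2 difference of 6.78 ± 0.21 (adjusted p = 9.94e-12, limma) is one against a dim signal. Timp2 had 832, 897 and 742 in TIMP2-/- UUO, against 5304, 4785 and 4242 in TIMP3-/- UUO and 4205, 4689 and 3521 in WT UUO. A signal well above the dim range therefore remained in the TIMP2-/- kidneys, at a log2 difference of -2.53 ± 0.16 (adjusted p = 2.07e-07, limma). Of the 6 probe sets for Timp2, 5 were called lower and the other was dim in both groups, at 26.7 to 32.4 and 21.1 to 32.4. The position of the probe sets relative to the deleted sequence is not stated by the labels or the files.

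The remaining inhibitors did not pass. Timp1, the family member best known for its rise in injured tissue, had 2679, 2518 and 3597 in TIMP2-/- UUO, against 12814, 3457 and 3464 in TIMP3-/- UUO. TIMP3-/- UUO 1 stood far above the others, and the log2 difference was -0.89 ± 0.52 (adjusted p = 0.251, limma). Timp4 had a log2 difference of 0.25 ± 0.13 (adjusted p = 0.206, limma), and Reck, a membrane-anchored inhibitor of matrix metalloproteinases, had a log2 difference of -0.27 ± 0.16 (adjusted p = 0.263).

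Among solute carriers of the proximal tubule, the segment that reclaims most of the filtered solutes, 19 of 24 measured genes were higher in TIMP2-/- UUO. None was lower, and 23 had arrays that did not overlap. For all genes these shares were 5.7% called higher and 21.1% higher without overlap, which also stand beside the tubular lists below. The median log2 difference of the list was 1.301, against 0.105 for all genes. Slc22a7, which encodes an organic anion transporter, had 1005, 1080 and 2823 in TIMP2-/- UUO, against 75.4, 56.2 and 85.8 in TIMP3-/- UUO and 502, 233 and 2370 in WT UUO. All TIMP2-/- and WT arrays thus lay above all TIMP3-/- arrays. Its log2 difference was 4.35 ± 0.58 (adjusted p = 0.00137, limma), but TIMP3-/- UUO 2 lay under the dim limit of 56.9 and the other TIMP3-/- arrays not far above it, so its size is one against a dim signal. Slc5a2, the sodium-glucose cotransporter SGLT2, had 2819, 3136 and 5573 in TIMP2-/- UUO, against 865, 912 and 1386 in TIMP3-/- UUO and 3140, 1646 and 5079 in WT UUO, a log2 difference of 1.83 ± 0.33 (adjusted p = 0.00974). Again the TIMP2-/- arrays were all higher, and the WT arrays reached from just above the TIMP3-/- values to within the TIMP2-/- values. Slc6a20b, which carries imino acids, had a log2 difference of 1.83 ± 0.36, Slc22a30 one of 1.73 ± 0.35, and Slc2a2, the glucose transporter GLUT2, one of 1.18 ± 0.22. Outside the list, Slc22a19, another organic anion transporter, was among the 12 largest positive differences at 2.67 ± 0.41.

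The count of called transporters was 10, 11 and 1 without TIMP2-/- UUO 1, 2 or 3, and 2, 2 and 22 without TIMP3-/- UUO 1, 2 or 3. It was 17 when TIMP3-/- UUO 2, WT UUO 2 and WT sham 3, labelled here the arrays that stand apart, were left out together. Of these only TIMP3-/- UUO 2 enters the difference, and the WT arrays change just the shared estimate of spread. Such counts, here and in the lists below, are therefore no check on an outlier alone. Correlation with replicates did not single out TIMP3-/- UUO 2 (mean 0.964, against 0.965 for TIMP3-/- UUO 3) or WT sham 3 (0.981, against 0.982 for TIMP3-/- sham 1). The median of the list stayed between 1.117 and 1.465 in the 18 fits with 1 array left out. Slc22a7 and Slc22a19 passed in all of these fits, with adjusted p of at most 0.0109 and 0.029, while Slc5a2 did not pass without TIMP2-/- UUO 3 (adjusted p = 0.0658). Kidney samples hold many cell types, and in such bulk values fewer cells of a type and less RNA per cell cannot be told apart.

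Endocytic receptors and brush border genes gave 8 of 16 higher, none lower and a median of 0.80. Mep1b, the beta subunit of the brush border protease meprin, had 970, 1131 and 1484 in TIMP2-/- UUO, against 137, 166 and 294 in TIMP3-/- UUO and 541, 282 and 1601 in WT UUO. Its log2 difference was 2.64 ± 0.44 (adjusted p = 0.00582, limma), and it passed in all 18 fits with 1 array left out. Cubn and Lrp2 encode cubilin and megalin, the receptors that take up filtered protein, and Amn the protein that brings cubilin to the membrane. Cubn had 2705, 3388 and 3956 in TIMP2-/- UUO, against 1040, 1221 and 1854 in TIMP3-/- UUO, a log2 difference of 1.31 ± 0.25 (adjusted p = 0.0129). Amn differed by 1.25 ± 0.24, Pdzk1, a brush border scaffold protein, by 1.20 ± 0.23, and Lrp2 by 1.13 ± 0.25, so the receptors and their partners lay within a narrow range. With 1 array left out, the count of called genes in this list was 6, 6 and 1 without TIMP2-/- UUO 1, 2 or 3 and 1, 1 and 9 without TIMP3-/- UUO 1, 2 or 3.

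Enzymes that break down amino acids and other small molecules in the proximal tubule were the most complete group. Of 23 measured genes 21 were higher in TIMP2-/- UUO, with a median log2 difference of 1.35, and Gatm (0.23) and Kynu (-0.07) did not pass. Hpd, an enzyme of tyrosine breakdown, had 372, 368 and 773 in TIMP2-/- UUO, against 74.2, 55.1 and 100.1 in TIMP3-/- UUO, a log2 difference of 2.67 ± 0.61 (adjusted p = 0.0237, limma). In WT UUO this gene, which the liver also expresses, had 243, 2616 and 899, with the array that held liver transcripts the highest. Hgd, which acts later in the same pathway, had 4480, 4282 and 6079 in TIMP2-/- UUO, against 1316, 1167 and 2272 in TIMP3-/- UUO and 3479, 2204 and 6183 in WT UUO, a log2 difference of 1.69 ± 0.29 (adjusted p = 0.0083). TIMP2-/- arrays were higher for both enzymes without overlap.

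Further pathways were represented among the smallest p-values of the list. Kynurenine breakdown gave Kmo, with a log2 difference of 1.18 ± 0.20, and Haao, with 2.12 ± 0.37. Upb1, the last enzyme of pyrimidine breakdown, had 1322, 1389 and 2025 in TIMP2-/- UUO, against 480.0, 415 and 697 in TIMP3-/- UUO, a log2 difference of 1.58 ± 0.26 (adjusted p = 0.0053, limma). Dmgdh, a mitochondrial enzyme of choline breakdown, differed by 1.78 ± 0.27. Outside the list, Aadat, an aminotransferase of lysine and kynurenine metabolism that ranked among the 12 largest positive differences, differed by 2.51 ± 0.39. Aadat had 2792, 3156 and 4468 in TIMP2-/- UUO, against 457, 508 and 919 in TIMP3-/- UUO. Dmgdh, Kmo, Upb1 and Aadat passed in all 18 fits with 1 array left out, whereas Hgd and Haao did not pass without TIMP2-/- UUO 3 (adjusted p = 0.0619 and 0.0544) and Hpd did not pass in 4 of the 18 fits. The list as a whole had 12, 13 and 3 genes called without TIMP2-/- UUO 1, 2 or 3, 5, 5 and 21 without TIMP3-/- UUO 1, 2 or 3, and 20 without the 3 arrays that stand apart.

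Cytochrome P450 and conjugating enzymes, which oxidise and tag drugs, steroids and fatty acids, had 11 of 24 members higher and none lower, with a median of 0.87 and all 24 differences above 0. Cyp2d26 had 833, 839 and 2265 in TIMP2-/- UUO, against 173, 160 and 344 in TIMP3-/- UUO and 941, 1214 and 2404 in WT UUO, a log2 difference of 2.46 ± 0.39 (adjusted p = 0.00432, limma). Cyp7b1, which hydroxylates oxysterols and steroids, had 2879, 3930 and 3472 in TIMP2-/- UUO, against 1134, 873 and 861 in TIMP3-/- UUO, a log2 difference of 1.84 ± 0.31 (adjusted p = 0.00705). Both separated the groups without overlap and passed in all 18 fits with 1 array left out. Cyp2d9, Ces1d and Cyp2e1 differed by 2.03 ± 0.38, 2.04 ± 0.38 and 0.84 ± 0.16, and Cyp2d12, dim in TIMP3-/- UUO at 32.4 to 52.1, by 2.42 ± 0.66. Markers of hepatocytes, which express many of these enzymes as well as Hpd and Serpinf2, lay on the same side. The 13 measured hepatocyte genes had a summed intensity of 6380 to 11586 in TIMP2-/- UUO, against 3631 to 4209 in TIMP3-/- UUO and 5654 to 103377 in WT UUO, with a median log2 difference of 0.84 and 11 of 13 differences above 0. Their differences ran from -0.23 to 2.03, and none of them was called. Arrays did not overlap for 7 of them, all higher in TIMP2-/- UUO, where 21.1% of all genes were higher without overlap. Their part in the tubular and P450 differences was not tested. Genes of the Cyp2d family are close in sequence, and whether their probes tell them apart was not tested. The count called in the list was 7, 7 and 2 without TIMP2-/- UUO 1, 2 or 3, and 4, 2 and 15 without TIMP3-/- UUO 1, 2 or 3.

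Fatty acid oxidation, the main fuel pathway of the proximal tubule, had 13 of 23 genes higher and none lower, with a median of 0.63. Ppara, the nuclear receptor that drives the genes of this pathway, had 737, 766 and 1023 in TIMP2-/- UUO, against 221, 294 and 438 in TIMP3-/- UUO and 761, 525 and 1015 in WT UUO. Its log2 difference was 1.45 ± 0.24 (adjusted p = 0.00629, limma), and it passed in all 18 fits with 1 array left out. The enzymes Acads, Etfb, Hadh and Decr1 differed by 1.02 ± 0.24, 0.74 ± 0.17, 0.72 ± 0.17 and 0.50 ± 0.11. Subunits of oxidative phosphorylation gave 14 of 25 higher and none lower, with a smaller median of 0.49. Cyc1, of complex III, had 7617, 6865 and 9203 in TIMP2-/- UUO, against 4346, 3743 and 5459 in TIMP3-/- UUO, a log2 difference of 0.81 ± 0.20 (adjusted p = 0.0321). Sdhb, of complex II, differed by 0.78 ± 0.20, Ndufs8 and Ndufs7, of complex I, by 0.75 ± 0.19 and 0.74 ± 0.19, and Atp5c1, of ATP synthase, by 0.50 ± 0.13, though its value was -0.43 on the probe set that stood for it once probe sets with a suffix were left out. The respiratory calls rested on single arrays: no member was called without TIMP2-/- UUO 1, 2 or 3 or without TIMP3-/- UUO 1 or 2, 21 were called without TIMP3-/- UUO 3, and 3 without the 3 arrays that stand apart. The fatty acid list had 2, 4 and 1 called without TIMP2-/- UUO 1, 2 or 3, 1, 1 and 14 without TIMP3-/- UUO 1, 2 or 3, and 7 without those 3 arrays.

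**Figure D2:**
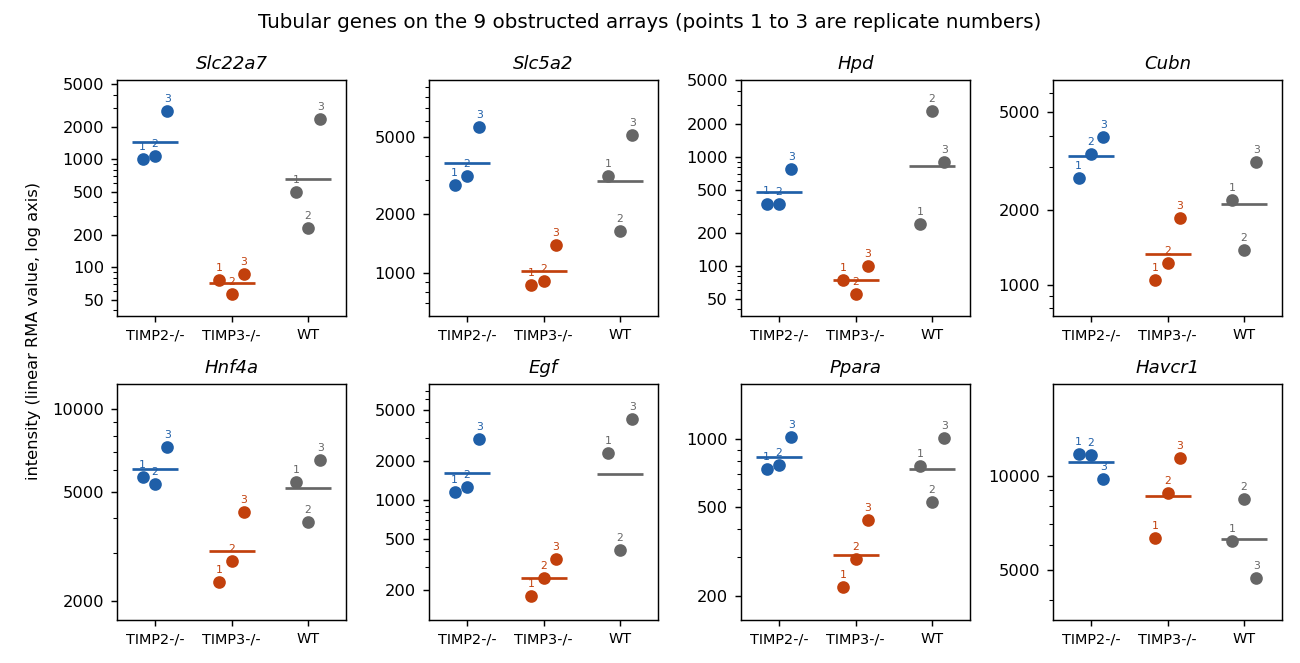
Intensity of 8 tubular genes (vertical axes, linear RMA intensity on a log axis) on the 3 TIMP2-/- UUO, 3 TIMP3-/- UUO and 3 WT UUO arrays, with replicate numbers beside the points and the mean of the log2 values as a line. TIMP2-/- points lie above all TIMP3-/- points for each gene but Havcr1, where 6327 to 11423 in TIMP3-/- UUO overlaps 9817 to 11806 in TIMP2-/- UUO.

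In the list of the loop, distal tubule and collecting duct 2 of 29 genes were called, Egf and Avpr2, both higher, a share near the 5.7% of all genes called higher. Of the 29 differences 28 were above 0, and the median was 0.47. Egf, a growth factor precursor made by the thick ascending limb and distal tubule, had 1156, 1261 and 2951 in TIMP2-/- UUO, against 179, 248 and 348 in TIMP3-/- UUO and 2291, 405 and 4225 in WT UUO. No TIMP3-/- array reached the lowest TIMP2-/- or WT array, and the log2 difference was 2.71 ± 0.59 (adjusted p = 0.0211, limma). Avpr2, the vasopressin receptor of the collecting duct, had 695, 708 and 771 in TIMP2-/- UUO, against 107, 159 and 439.7 in TIMP3-/- UUO, a log2 difference of 1.89 ± 0.51 (adjusted p = 0.041). Scnn1g, a subunit of the epithelial sodium channel, at 0.93 ± 0.29, and Wnk4, a kinase of distal salt transport, at 1.05 ± 0.34, did not pass (adjusted p = 0.0593 and 0.0653). With 1 array left out, Egf did not pass in 3 of the 18 fits and Avpr2 in 13, and 9 genes of the list were called without TIMP3-/- UUO 3.

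Other genes of the tubular epithelium were called outside these lists. Hnf4a encodes the transcription factor that keeps up the proximal tubule programme, and it had 5663, 5355 and 7314 in TIMP2-/- UUO, against 2350, 2809 and 4225 in TIMP3-/- UUO and 5420, 3896 and 6512 in WT UUO, a log2 difference of 1.00 ± 0.20 (adjusted p = 0.0179, limma). Kl, the anti-ageing hormone klotho, differed by 1.25 ± 0.31 (adjusted p = 0.0322). Dnase1, a secreted nuclease made by the kidney, had 5800, 5753 and 11707 in TIMP2-/- UUO, against 805, 524 and 1470 in TIMP3-/- UUO, and its log2 difference of 3.10 ± 0.50 (adjusted p = 0.00524) was the largest among genes outside the lists after BC018473. Of these, Dnase1 passed in all 18 fits with 1 array left out, while Hnf4a did not pass in 3 of them and Kl in 5.

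Among genes that injured tubules switch on, none of 19 was called, where 7.5% of all genes were, so a list of this size would hold few calls at that share. Their differences ran from -1.12 to 1.61 with a median of -0.04, and 4 had arrays that did not overlap, 2 in each direction. Havcr1, which encodes the injury marker KIM-1, had 11806, 11723 and 9817 in TIMP2-/- UUO, against 6327, 8836 and 11423 in TIMP3-/- UUO, with 6175, 8439 and 4698 in WT UUO and 145, 125 and 155 in TIMP2-/- sham. The arrays of the knockouts overlapped, and the log2 difference was 0.36 ± 0.21 (adjusted p = 0.237, limma). Lcn2, which encodes the injury marker NGAL, had 16152, 13002 and 8829 in TIMP2-/- UUO, against 4910, 9255 and 15144 in TIMP3-/- UUO, a log2 difference of 0.48 ± 0.34 (adjusted p = 0.335). A p above the threshold does not show that the groups are alike.

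Because the tubular genes were higher together, the 250 bases before the RefSeq start of each called gene were searched on both strands for CAAAGTCCA, the core of the motif that HNF4 proteins bind, a motif chosen with these results known. It was present in 0.384% of the 32851 mouse promoter windows and, counted by gene, in 0.607% of the 9887 measured genes with a window. Of the genes called higher, 581 had a window and 7 held the motif (1.2%), and of those called lower, 173 had one and 2 held it (1.16%), so the shares were near each other. Among the 7 were Aadat, described above, and Slc3a1, a subunit of the cystine transporter, which had 5113, 5208 and 6010 in TIMP2-/- UUO, against 2013, 2316 and 3885 in TIMP3-/- UUO (log2 difference 1.05 ± 0.22, adjusted p = 0.0194, limma). Their windows are shown as 2 examples from the 7, from RefSeq, build GRCm38.p6, with the match in capitals. They lie at chr8:60505874-60506123 on the plus strand for Aadat and chr17:85028097-85028346 on the plus strand for Slc3a1. In Aadat the match begins 72 bases before the start and reads on the minus strand, and in Slc3a1 39 bases before it and on the plus strand. A match is a description of the letters, not a bound site.
Aadat: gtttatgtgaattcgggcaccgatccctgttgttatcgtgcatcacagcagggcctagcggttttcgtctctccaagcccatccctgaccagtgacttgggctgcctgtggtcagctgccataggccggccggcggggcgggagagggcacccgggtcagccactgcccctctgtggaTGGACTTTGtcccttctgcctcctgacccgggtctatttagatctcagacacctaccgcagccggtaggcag
Slc3a1: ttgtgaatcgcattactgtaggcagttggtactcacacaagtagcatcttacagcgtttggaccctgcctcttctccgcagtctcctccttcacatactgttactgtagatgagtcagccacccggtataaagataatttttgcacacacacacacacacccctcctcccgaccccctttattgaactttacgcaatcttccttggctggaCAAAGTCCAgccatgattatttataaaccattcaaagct

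The interstitial matrix ran the other way. Of 15 measured genes for fibrillar and interstitial collagens, 9 were lower in TIMP2-/- UUO and none was higher, where 1.8% of all genes were lower, and the median log2 difference was -1.12. Col1a1, a chain of type I collagen, had 3130, 4141 and 5446 in TIMP2-/- UUO, against 19835, 11506 and 5862 in TIMP3-/- UUO and 6035, 12625 and 4747 in WT UUO. TIMP3-/- UUO 3 was close to the highest TIMP2-/- array, and the log2 difference was -1.41 ± 0.38 (adjusted p = 0.0384, limma), which did not pass in 13 of the 18 fits with 1 array left out. Col3a1, the chain of type III collagen, had 15565, 17467 and 18000 in TIMP2-/- UUO, against 36782, 35364 and 22538 in TIMP3-/- UUO, a log2 difference of -0.86 ± 0.22 (adjusted p = 0.0341) that did not pass in 5 of those fits. Col12a1, Col14a1 and Col16a1, which coat fibrils, differed by -1.54 ± 0.31, -1.12 ± 0.26 and -1.03 ± 0.22, and Col8a1 by -1.55 ± 0.41. Without TIMP2-/- UUO 1, 2 or 3 the called collagens were 0, 1 and 0, without TIMP3-/- UUO 1, 2 or 3 they were 0, 1 and 13, and without the 3 arrays that stand apart they were 5.

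Matricellular proteins and proteoglycans, the non-collagen parts of the matrix, had 11 of 22 genes lower and none higher. All 22 differences were below 0, with a median of -1.55. Ccn2, the connective tissue growth factor that TGF-β induces, had 4358, 4665 and 3616 in TIMP2-/- UUO, against 10536, 10671 and 7584 in TIMP3-/- UUO and 5236, 11390 and 5166 in WT UUO, a log2 difference of -1.18 ± 0.27 (adjusted p = 0.0232, limma). The 3 TIMP3-/- arrays were all above the TIMP2-/- arrays for Ccn2, but several other members rested on a pair of arrays. Postn, which encodes periostin and was named for its spread after its values were seen, had 348, 284 and 321 in TIMP2-/- UUO, against 9063, 11485 and 331 in TIMP3-/- UUO and 999, 3341 and 408 in WT UUO. TIMP3-/- UUO 3 thus had no more Postn than TIMP2-/- UUO, and the adjusted p of 0.0496 (log2 difference -3.36 ± 0.97) did not hold in 15 of the 18 fits with 1 array left out. Eln, which encodes elastin, had 250, 267 and 678 in TIMP2-/- UUO, against 2910, 2518 and 664 in TIMP3-/- UUO, an overlap of the same kind (log2 difference -2.25 ± 0.54, adjusted p = 0.0274). Fstl1 differed by -1.46 ± 0.36, Mfap4 by -2.20 ± 0.56, and Vcan, the proteoglycan versican, by -2.51 ± 0.69. Fndc1, a fibronectin domain gene outside the list, was among the 12 largest negative differences without overlap at -2.30 ± 0.48. Aspn, a small leucine-rich proteoglycan, was dim on every TIMP2-/- array (16.6 to 18.5) and on TIMP3-/- UUO 3 (25.1). Called members numbered 0, 1 and 1 without TIMP2-/- UUO 1, 2 or 3, and 0, 0 and 20 without TIMP3-/- UUO 1, 2 or 3, and 6 without the 3 arrays that stand apart.

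Of the enzymes that process collagen, Lox, the lysyl oxidase that crosslinks it, was the 1 of 15 called, where 1.8% of all genes were lower. In this list 13 of 15 differences were below 0, with a median of -0.55. Its members lower without overlap numbered 7, where 9.99% of all genes were. Lox had 476, 491 and 307 in TIMP2-/- UUO, against 4402, 4912 and 653 in TIMP3-/- UUO and 1068, 4342 and 497 in WT UUO, a log2 difference of -2.54 ± 0.69 (adjusted p = 0.0411, limma), and it did not pass in 13 of the 18 fits with 1 array left out. In the basement membrane list Nid1, which encodes nidogen, and Lamc1, a laminin chain, were lower by 0.84 ± 0.21 and 0.70 ± 0.18 on the log2 scale. They were the 2 called of 19, where 1.8% of all genes were lower. With 1 array left out, Nid1 did not pass in 5 of the 18 fits and Lamc1 in 8.

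Contractile genes of smooth muscle, which myofibroblasts share in part, were lower in TIMP2-/- UUO for 10 of 16 members. Of all genes 1.8% were lower, and the median difference of this list was -0.96. The largest was Actg2, the gamma actin of visceral smooth muscle, with 155, 222 and 851 in TIMP2-/- UUO, against 11854, 6668 and 1409 in TIMP3-/- UUO and 527, 5989 and 640 in WT UUO. The groups did not overlap, and the log2 difference was -3.96 ± 0.86 (adjusted p = 0.021, limma), which did not pass in 4 of the 18 fits with 1 array left out. Acta2, the alpha actin that marks myofibroblasts, had 7140, 7252 and 9257 in TIMP2-/- UUO, against 22373, 16262 and 13371 in TIMP3-/- UUO and 6735, 17323 and 9151 in WT UUO, a log2 difference of -1.11 ± 0.30 (adjusted p = 0.0412) that did not pass in 10 of those fits. Cnn1 (calponin), Myh11 (smooth muscle myosin) and Des (desmin) differed by -3.09 ± 0.73, -2.47 ± 0.49 and -1.13 ± 0.23. Tagln, Tpm1 and Mylk, whose products bind actin or activate myosin, differed by -1.02 ± 0.26, -0.84 ± 0.18 and -0.69 ± 0.13. Mylk was the most even within groups, with 2690, 2817 and 2255 in TIMP2-/- UUO, against 4116, 4489 and 3889 in TIMP3-/- UUO and 2928, 3178 and 2466 in WT UUO.

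In this list 2, 4 and 3 genes were called without TIMP2-/- UUO 1, 2 or 3, 1, 1 and 11 without TIMP3-/- UUO 1, 2 or 3, and 11 without the 3 arrays that stand apart. Fibroblast and myofibroblast markers, which share Acta2, Tagln and Des with it, had 7 of 16 lower and none higher, with a median of -1.11. Rgs5, a marker of pericytes, had 649, 539 and 446 in TIMP2-/- UUO, against 3181, 6235 and 969 in TIMP3-/- UUO, a log2 difference of -2.31 ± 0.58 (adjusted p = 0.0322, limma). Vim, which encodes the mesenchymal filament vimentin, did not pass at -0.79 ± 0.28 (adjusted p = 0.0855).

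Myl9, the regulatory light chain of smooth muscle myosin, had 2789, 3026 and 3305 in TIMP2-/- UUO, against 7349, 4981 and 4946 in TIMP3-/- UUO and 2589, 5213 and 3404 in WT UUO, a log2 difference of -0.90 ± 0.24 (adjusted p = 0.0373, limma). Its promoter window is shown because it holds a CArG box, the palindromic motif bound by serum response factor, which drives smooth muscle genes. The motif, searched on both strands in its strict form and chosen with these results known, was in 1.47% of all 32851 windows. Counted by gene, it was in 1.6% of the 9887 measured genes with a window. It was in 8 of the 173 such genes called lower (4.62%) and in 5 of the 581 called higher (0.861%). Of the 13 smooth muscle genes with a window, Myl9 alone held it. The window is from RefSeq, build GRCm38.p6, chr2:156775214-156775463 on the plus strand, with the match, which begins 161 bases before the start, in capitals.
Myl9: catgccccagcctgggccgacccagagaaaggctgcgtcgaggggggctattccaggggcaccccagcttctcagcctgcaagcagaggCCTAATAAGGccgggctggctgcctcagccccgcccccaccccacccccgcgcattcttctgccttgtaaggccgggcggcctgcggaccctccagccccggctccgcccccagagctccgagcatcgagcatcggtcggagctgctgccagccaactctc

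**Figure D3:**
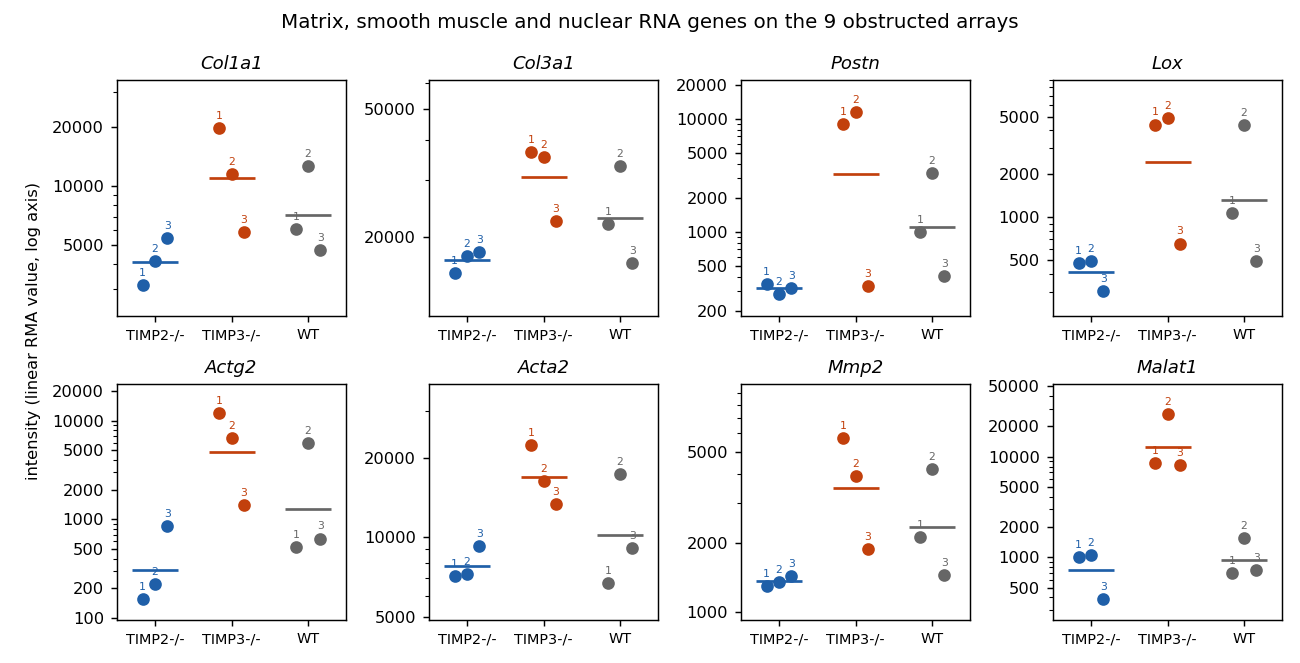
Intensity of 8 genes of matrix, smooth muscle and nuclear RNA (vertical axes, linear RMA intensity on a log axis) on the 3 TIMP2-/- UUO, 3 TIMP3-/- UUO and 3 WT UUO arrays, with replicate numbers and the mean of the log2 values as a line. TIMP3-/- UUO 3 lies near the TIMP2-/- points for Postn (331) and Lox (653) but not for Malat1 (8189), and WT UUO 2 is the highest WT array throughout.

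Transcripts of tissue that a kidney sample can carry along moved with the matrix genes on some arrays. The 6 adipocyte genes had a summed intensity of 11408 to 12760 in TIMP2-/- UUO, 4162 to 41156 in TIMP3-/- UUO and 5335 to 31831 in WT UUO, and none was called. Adipoq, which encodes adiponectin, had 2021, 1652 and 2728 in TIMP2-/- UUO, against 7461, 5281 and 349 in TIMP3-/- UUO and 2940, 6388 and 933 in WT UUO. TIMP3-/- UUO 1 and 2 and WT UUO 2, the arrays with the most Adipoq, were also those with the most Col1a1, Postn, Lox and Actg2. The 10 urothelium genes summed to 4522 to 7045 in TIMP2-/- UUO, against 8853 to 14100 in TIMP3-/- UUO, with none called and a median of -0.45. Endothelial (18 genes) and podocyte lists (12 genes) had none called, with medians of -0.20 and -0.14. Since 7.5% of all genes were called, lists of these sizes would hold few calls, and none called does not show that the groups are alike. The part of such tissue in the matrix and muscle differences was not tested.

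**Figure D4:**
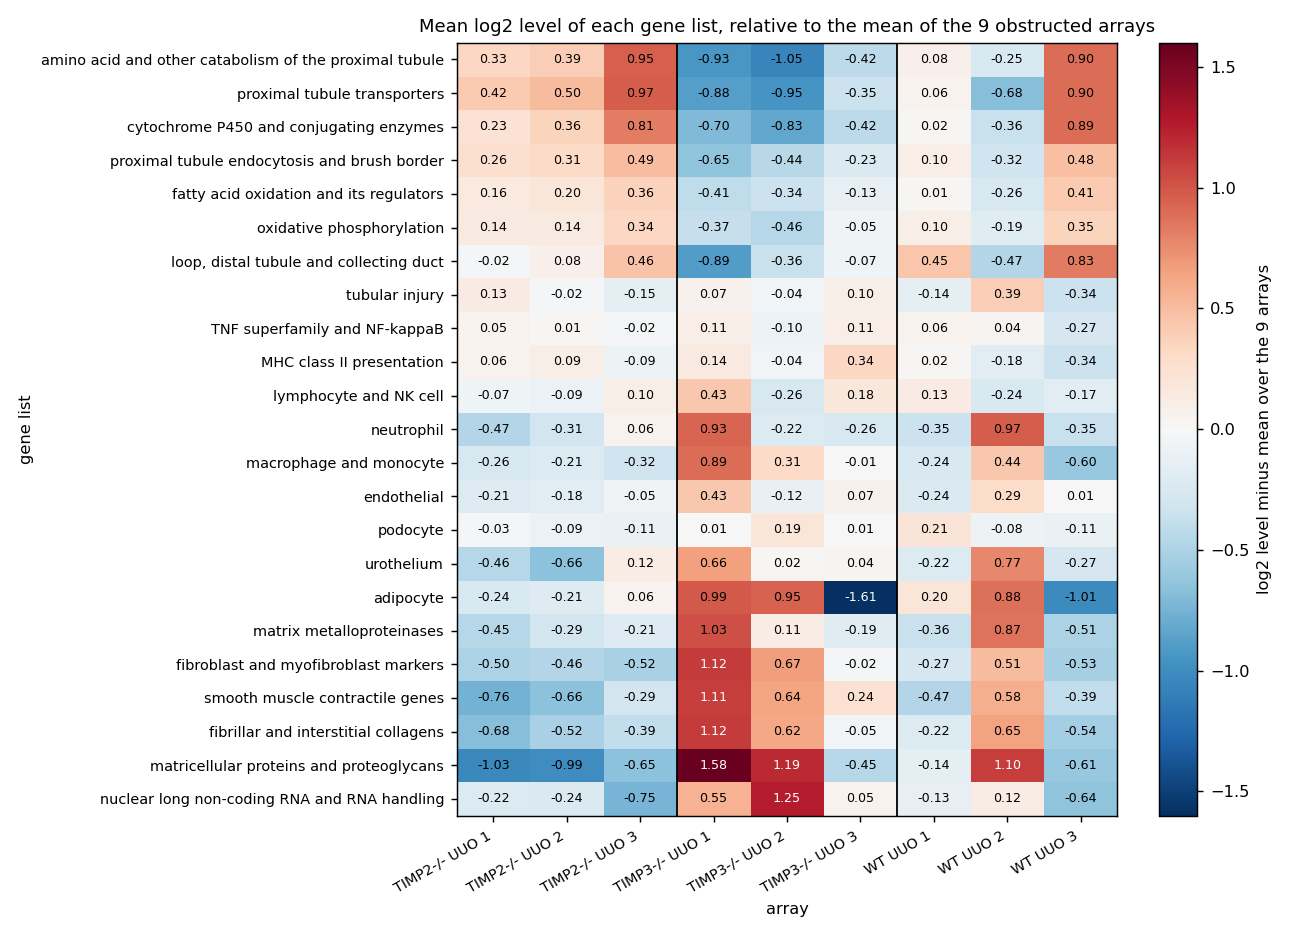
Mean log2 level of the measured genes of 23 lists (rows) on each obstructed array (columns: TIMP2-/-, TIMP3-/-, WT), relative to the mean of the 9 arrays, red above it and blue below. Proximal tubule lists are highest on TIMP2-/- UUO 3 and WT UUO 3 and lowest on TIMP3-/- UUO 1 and 2, and matricellular genes reach 1.58 on TIMP3-/- UUO 1 against -0.45 on TIMP3-/- UUO 3.

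Among the proteases, 1 of 14 matrix metalloproteinases and 2 of 12 ADAM and ADAMTS genes were called, all lower, where 1.8% of all genes were, and the medians were -0.69 and -0.71. Of the matrix metalloproteinases it was Mmp2, the gelatinase whose activation involves TIMP2, with 1300, 1354 and 1443 in TIMP2-/- UUO, against 5710, 3913 and 1880 in TIMP3-/- UUO and 2117, 4212 and 1457 in WT UUO. Its log2 difference was -1.35 ± 0.37 (adjusted p = 0.0408, limma), and it did not pass in 13 of the 18 fits with 1 array left out. Mmp14, which encodes the membrane protease that activates MMP2, had 2242, 2368 and 2370 in TIMP2-/- UUO, against 9338, 5654 and 3323 in TIMP3-/- UUO, without overlap but above the threshold (-1.27 ± 0.40, adjusted p = 0.0616). Mmp9 was high on single arrays of TIMP3-/- UUO (1319) and WT UUO (1090), and its difference of -0.98 ± 0.83 turned to 0.149 without TIMP3-/- UUO 1. Adam12 and Adam19, membrane proteases of mesenchymal cells, were lower by 1.39 ± 0.35 and 1.18 ± 0.34 on the log2 scale, the 2 called of 12 in their list. Adam17, whose product TIMP3 inhibits, had 411, 509 and 296 in TIMP2-/- UUO, against 825, 989 and 589 in TIMP3-/- UUO, and did not pass (-0.99 ± 0.33, adjusted p = 0.0737). With 1 array left out, Adam12 did not pass in 4 of the 18 fits and Adam19 in 15.

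Plau and Serpinf2 were the 2 called of 8 genes of plasminogen activation, both higher, where 5.7% of all genes were called higher. The list as a whole did not lie on that side, with 5 of 8 differences below 0 and a median of -0.16. Plau and Serpinf2 passed in all 18 fits with 1 array left out. Plau, which encodes urokinase, had 5523, 5367 and 3911 in TIMP2-/- UUO, against 1237, 2410 and 2324 in TIMP3-/- UUO and 4550, 3142 and 3793 in WT UUO, a log2 difference of 1.35 ± 0.24 (adjusted p = 0.00911, limma). Serpinf2, the inhibitor of plasmin, differed by 1.93 ± 0.29 (adjusted p = 0.00346). The activator and the inhibitor thus lay on the same side.

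In the TGF-β, activin and BMP list Bmp7, a ligand that opposes TGF-β in the kidney, was higher, and Ccn2, Tgfb2 and Inhba were lower. These were 4 of 24, where 7.5% of all genes were called. Bmp7 had 206, 209.6 and 352 in TIMP2-/- UUO, against 95.2, 105 and 165 in TIMP3-/- UUO, a log2 difference of 1.07 ± 0.28 (adjusted p = 0.0356, limma). Tgfb2, a ligand of the pathway, had 203, 218 and 124 in TIMP2-/- UUO, against 512, 447 and 286 in TIMP3-/- UUO, a log2 difference of -1.19 ± 0.29 (adjusted p = 0.0307). Inhba, the activin A subunit, differed by -0.96 ± 0.27. Tgfb1 overlapped, with 269, 255 and 282 in TIMP2-/- UUO and 306, 198 and 445 in TIMP3-/- UUO (-0.16 ± 0.25, adjusted p = 0.656). All 4 calls were lost without TIMP2-/- UUO 1 or 3 and without TIMP3-/- UUO 1 or 2, and Inhba did not pass in 13 of the 18 fits with 1 array left out.

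Inflammatory lists are read here against the 7.5% of all genes called, at which lists of this size would hold few calls. Of 24 genes of the TNF superfamily and NF-κB none was called, and Tnf, the cytokine released by ADAM17, had 129, 134 and 168 in TIMP2-/- UUO, against 123, 109 and 128 in TIMP3-/- UUO (0.26 ± 0.12, adjusted p = 0.178, limma). Macrophage and monocyte markers had a median of -0.62 with 25 of 27 differences below 0, yet Ly86, a partner of a Toll-like receptor relative, was the 1 called, at -0.85 ± 0.19 (adjusted p = 0.0227). Itgam and Mrc1 were at -1.02 ± 0.31 and -1.47 ± 0.46 and did not pass (adjusted p = 0.0564 and 0.0626), and 11 of the 27 were called without TIMP3-/- UUO 3. None of 13 neutrophil and 10 MHC class II genes was called. Mx1, an interferon-induced antiviral GTPase, had 59.1, 72.2 and 60.4 in TIMP2-/- UUO, against 194, 144 and 109.8 in TIMP3-/- UUO and 48.8, 62.8 and 43.0 in WT UUO. It was the 1 called of 26 interferon-induced genes (-1.19 ± 0.18, adjusted p = 0.00352), and with Il6ra, a receptor chain for interleukin-6, which had 166, 206 and 193 in TIMP2-/- UUO, against 451, 329 and 383 in TIMP3-/- UUO (-1.03 ± 0.17, adjusted p = 0.00582), it passed in all 18 fits with 1 array left out. In the complement list 3 of 14 genes were called: Cfi and Cfb were higher and C1s1 lower, by 0.88 ± 0.24, 0.61 ± 0.16 and -0.96 ± 0.23, and no member was called without TIMP2-/- UUO 1, 2 or 3 or without TIMP3-/- UUO 1 or 2. None of 27 cell cycle genes was called, with a median of -0.27.

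Malat1, a long RNA that stays in the nucleus, had the largest difference among genes called lower. It had 1006, 1058 and 385.5 in TIMP2-/- UUO, against 8637, 26755 and 8189 in TIMP3-/- UUO and 701, 1566 and 749 in WT UUO, a log2 difference of -4.06 ± 0.76 (adjusted p = 0.0125, limma). All TIMP3-/- UUO arrays stood above all other obstructed arrays, TIMP3-/- UUO 2 most. After sham Malat1 had 501, 304 and 183 in TIMP2-/- sham, against 5399, 1943 and 1937 in TIMP3-/- sham. The sham knockouts did not overlap, but the adjusted p was 0.314 (limma). In WT sham it had 361, 964 and 4410, so WT sham 3 lay within the TIMP3-/- sham values. Of its 5 probe sets 3 were called, and it did not pass without TIMP2-/- UUO 3 or without TIMP3-/- UUO 2. Of 19 nuclear long non-coding RNAs and RNA handling genes 4 were lower and none higher, where 1.8% of all genes were lower. They were Meg3, Rbm25 and Srsf2 beside Malat1, and the median of the list was -0.84. Meg3 was high on TIMP3-/- UUO 1 and 2 (3673 and 4498) and low on TIMP3-/- UUO 3 (248), against 157 to 441 in TIMP2-/- UUO. For Meg3 and Srsf2 the sign turned, to 0.125 and 0.155, when probe sets with a suffix were left out.

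The WT UUO mean lay between both knockout means for 673 of the 707 genes called higher (95.2%) and for 190 of the 223 called lower (85.2%). It was nearer to TIMP2-/- UUO for 638 of the genes called higher (90.2%) and for 174 of those called lower (78%). Without WT UUO 2, the array with liver transcripts, it was nearer to TIMP2-/- UUO for 683 genes called higher (96.6%) and 212 called lower (95.1%), but it lay between both for only 445 (62.9%) and 139 (62.3%), and beyond TIMP2-/- UUO for 260 and 83. Since the genes were chosen for the difference between the knockouts, these shares are a description and carry no test.

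After sham surgery the same comparison of genotypes gave 6 called genes, 0.0484% of 12393 (0.0242% in each direction), and 417 genes at an unadjusted p under 0.05. Timp3, BC018473 and Lsm12 were higher in TIMP2-/- sham, and Timp2, Zbtb7a and Mgp lower. All but Mgp were called in the same direction after UUO, which is 83.3% of the sham calls and 0.538% of the UUO calls. For the targeted genes Timp3 and Timp2 that direction follows from the genotypes. The median log2 difference after sham was 0.07 for the proximal tubule transporters, -0.01 for the catabolic enzymes, -0.13 for the interstitial collagens and -0.17 for the smooth muscle genes, against 0.03 for all genes. Slc22a7 had 8688, 9696 and 9376 in TIMP2-/- sham, against 5890, 7213 and 6855 in TIMP3-/- sham (0.48 ± 0.58, adjusted p = 1, limma), and Actg2 had 125, 160 and 193, against 93.8, 90.0 and 120.3. Both the large tubular and the large muscle differences were therefore measured after UUO and did not pass after sham.

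Whether the difference between the knockouts itself differed between UUO and sham was tested as an interaction in the same limma fit. No gene passed, and 1345 genes had an unadjusted p under 0.05. Timp2 came nearest, with an interaction of -1.61 on the log2 scale (adjusted p = 0.0611), then Kmo (adjusted p = 0.246), and Slc22a7 was at 3.87 (adjusted p = 0.272). Without TIMP3-/- UUO 3 the interaction called 208 genes, and without WT UUO 3 it called 19.

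**Figure D5:**
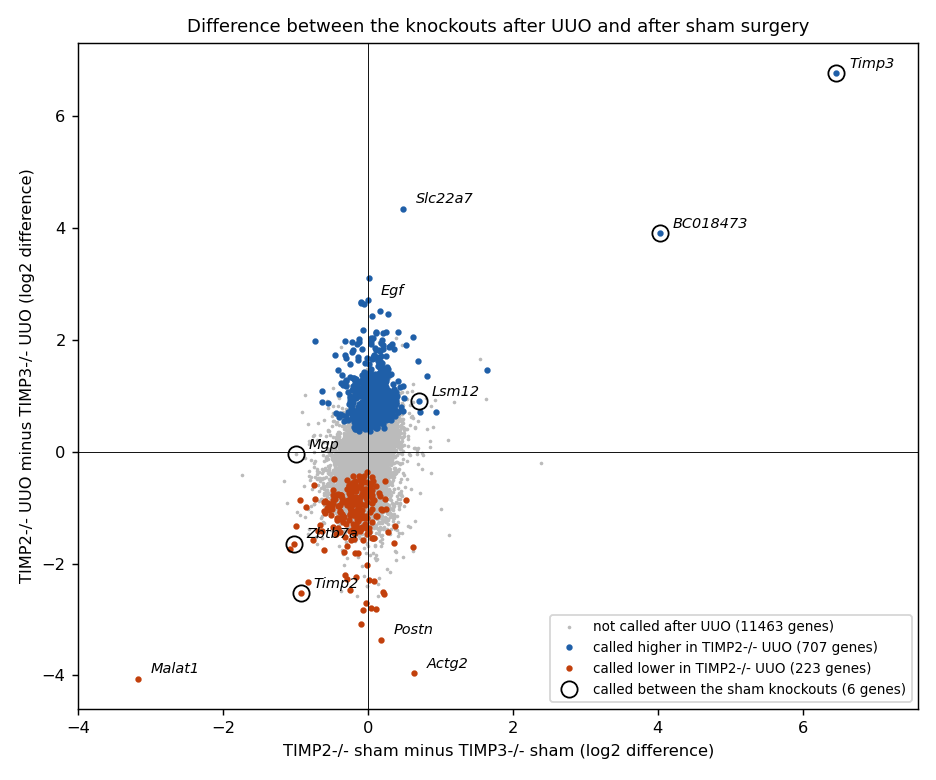
Log2 difference between the knockouts after UUO (vertical axis, TIMP2-/- UUO minus TIMP3-/- UUO) against that after sham (horizontal axis, TIMP2-/- sham minus TIMP3-/- sham), 1 point per gene. The 707 and 223 genes called after UUO (blue and orange) mostly lie near 0 on the horizontal axis, with Timp3, BC018473 and Malat1 toward the corners, and black rings mark the 6 genes called after sham.

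Some differences held in both operations. BC018473, a transcript of unstated function whose gene lies 19 measured genes from Timp2 in the RefSeq gene table, had 257, 273 and 265 in TIMP2-/- UUO, against 18.4, 15.03 and 19.8 in TIMP3-/- UUO and 20.2, 21.4 and 20.2 in WT UUO. It was likewise at 274, 521 and 551 in TIMP2-/- sham and dim in TIMP3-/- sham, at 18.1 to 33.2. The log2 differences were 3.91 ± 0.24 after UUO and 4.03 ± 0.24 after sham (adjusted p = 2.07e-07 and 1.3e-07, limma), both against a dim signal. These values are from a probe set with a suffix. Over the 34 other settings of the analysis, the UUO difference of BC018473 ran from 0.339 to 4.006, and it did not pass in 1 of them. Zbtb7a, a transcriptional repressor, had 184, 156 and 140.4 in TIMP2-/- UUO, against 451, 419.9 and 646 in TIMP3-/- UUO and 237, 224 and 232 in WT UUO, with log2 differences of -1.64 ± 0.14 and, after sham, -1.03 ± 0.14. The WT values lay nearer to TIMP2-/- UUO for Zbtb7a and nearer to TIMP3-/- UUO for BC018473. Lsm12, an RNA-binding protein gene, differed by 0.91 ± 0.11 after UUO and 0.71 ± 0.11 after sham.

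Of the 40 measured genes nearest to Timp2, 20 on each side, 5 were called after UUO, and of the 40 nearest to Timp3 it was 3, where 7.5% of all genes were. Near Timp2 these were St6galnac2, St6galnac1 and BC018473, higher, and Srsf2 and Usp36, lower, and near Timp3 they were Stab2 and Nr1h4, higher, and Nfyb, lower. Usp36, a deubiquitinase gene next to Timp2, had 217, 212 and 268 in TIMP2-/- UUO, against 359, 294 and 400 in TIMP3-/- UUO and 360.1, 376 and 384 in WT UUO. Its log2 difference was -0.59 ± 0.14 (adjusted p = 0.0258, limma), and it did not pass in 4 of the 18 fits with 1 array left out.

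At the level of probe sets, 17 were called after sham (0.0751%) and 16 of these also after UUO, all 16 in the same direction. The 16 include probe sets of the targeted genes Timp3 and Timp2, for which that direction follows from the genotypes. A probe set of Nedd4, a ubiquitin ligase gene, was among the 16, and it had 559.5, 622 and 350.5 in TIMP2-/- UUO, against 4545, 5807 and 3183 in TIMP3-/- UUO (log2 difference -3.14, adjusted p = 1.65e-05, limma). The other Nedd4 probe sets had log2 differences of -0.84 and -0.96 and did not pass (adjusted p = 0.119 and 0.0849). Wdfy1 had 3 probe sets, all called higher after UUO, and the one called after sham too had 496, 521 and 484 in TIMP2-/- UUO, against 124, 133 and 133 in TIMP3-/- UUO. These genes were named after their values were seen.

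Of the 930 called genes, 38 passed in every one of the 18 fits with 1 array left out, 25 higher and 13 lower. The higher ones named so far were Timp3, Slc22a7, BC018473, Dnase1, Slc22a19, Mep1b, Aadat, Cyp2d26, Serpinf2, Cyp7b1, Dmgdh, Upb1, Ppara, Plau, Kmo and Lsm12. Nnt, which encodes a mitochondrial transhydrogenase that supplies NADPH, was named after its values were seen, and it had 2135, 2290 and 3419 in TIMP2-/- UUO, against 818, 811 and 862 in TIMP3-/- UUO and 1286, 1584 and 1515 in WT UUO. The groups were far apart relative to their spread, with a log2 difference of 1.62 ± 0.18 (adjusted p = 0.00021, limma). Others higher, likewise named for passing in these fits, were Bhmt2, Akr1c18, Slc6a13, Acox2, Acsm1, Gys2, Abat and Dock5, at 0.97 to 2.12 on the log2 scale.

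The 13 lower ones were Timp2, Cfap97, Gsap, Kdm5a, Zbtb7a, Rest, Ednrb, Wdfy3, Mx1, Cldnd1, Il6ra, Ctcf and Gatad2b. Rest, a repressor of neuronal genes, had 394, 417 and 273 in TIMP2-/- UUO, against 964, 1122 and 1117 in TIMP3-/- UUO and 428, 397 and 324 in WT UUO, a log2 difference of -1.58 ± 0.19 (adjusted p = 0.000514, limma). Ctcf, which organises chromatin loops, had 857, 939 and 653 in TIMP2-/- UUO, against 1541, 1714 and 1614 in TIMP3-/- UUO and 847, 815 and 736 in WT UUO. Kdm5a, a histone demethylase, had 191, 192 and 111 in TIMP2-/- UUO, against 420.5, 732.5 and 501 in TIMP3-/- UUO and 148.5, 177 and 119 in WT UUO. For these chromatin and transcription genes, picked from the 13, the 3 TIMP3-/- arrays stood above both other genotypes. Passing in all 18 fits all but requires that separation from TIMP2-/- UUO. In the fit to the 6 obstructed knockout arrays alone, Rest, Ctcf and Kdm5a did not pass (adjusted p = 0.0539, 0.0858 and 0.0841, limma). That fit called 11 genes in all, so most of the 38, higher or lower, did not pass in it. Among the higher ones, Nnt, Ppara and Plau did not (adjusted p = 0.0539, 0.0926 and 0.106, limma). No collagen, matricellular or smooth muscle gene was among the 38.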

How the data were processed

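Total RNA of operated kidneys was measured on 18 Affymetrix Mouse 430A 2.0 arrays, 3 in each of 6 groups of genotype and operation. The deposited intensities were made by RMA, per the submitters' processing notes, with the version not named; they are linear, and the log2 of the deposited intensity was taken here. RMA equalises the distributions of the arrays, so a shift of all genes together would not show. Genes were named from the platform annotation, checked against RefSeq: 20380 probe sets had 1 symbol, 691 several and 1555 none, and the brightest probe set stood for a gene.

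limma 3.58.1 in R 4.3.3 was fitted to all 22626 non-control probe sets with 6 group means and no block, with Benjamini-Hochberg adjustment over all of them (12 residual and 3.28 prior degrees of freedom). The code was tested on simulated data. The labels call the samples biological replicates but do not name the animals, so the p-values measure the spread between these samples.

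The groups compared and the gene lists were chosen with earlier results of these data known. Genes were named by rule: the TIMP family and key injury, matrix and protease genes; the 12 largest non-overlapping called differences in each direction; the 5 smallest p in each list; the largest sham and interaction calls; called neighbours of the targeted genes; and marker genes given beside a result. Gatm, Kynu, Slc3a1, Postn, Myl9, Nedd4, Wdfy1 and those genes named only for passing in all 18 fits were chosen after their values were seen. Figures were drawn with matplotlib 3.10.9 in Python 3.11.15.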

Additional observations from a re-analysis of the deposited data

How the results depend on the processing

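The direction of all 930 called genes did not change in the 18 fits that left out 1 array, and for most it could not. Their number did change. It ran from 46 to 3280 genes and from 112 to 5577 probe sets, with the sham calls between 2 and 7 and the interaction calls between 0 and 208. In the other settings the UUO counts, genes first and probe sets next, were 559 and 975 without TIMP3-/- UUO 2, WT UUO 2 and WT sham 3, 1737 and 2951 without WT UUO 2 and WT sham 3, 11 and 26 with the 6 obstructed knockout arrays alone, 14 and 43 with the 9 obstructed arrays, 3482 and 5755 with array weights, and 2 and 7 with a plain t statistic on the 6 arrays. Leaving out suffixed probe sets gave 1005 probe sets. Centring each array on its median moved the median of all genes to 0.202 and gave 887 higher and 196 lower. After sham the count was 10 without those 3 arrays, 193 with array weights and 3 without suffixed probe sets. Interaction calls numbered 1 without WT UUO 2 and WT sham 3, with log2(value + 16), with quantile normalization repeated, or with 1 probe set per gene, 21 with the 12 knockout arrays and 1978 with array weights. The fits without WT UUO 2 and WT sham 3 and with the 12 knockout arrays, and the list counts with arrays left out, were chosen after seeing the data. The cause of these shifts was not tested.

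With the replicate number as a block, 2213 genes, 3751 probe sets and 151 interaction calls passed. The numbers do not pair the samples: the deviations of same-numbered TIMP2-/- UUO and TIMP3-/- UUO arrays correlated at -0.22, 0.49 and 0.47, and TIMP2-/- UUO 1 correlated best with TIMP3-/- UUO 2, at 0.57.

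Among single genes, leaving out suffixed probe sets turned Atp5c1 to -0.431, Meg3 to 0.125 and Srsf2 to 0.155, since another probe set then stood for the gene. Of the genes not called, Mgp turned to 0.053 with array weights and 0.054 with median centring and ran from -0.111 to 0.032 with 1 array left out, Cd74 turned to 0.062 with array weights and ran from -0.359 to 0.086, Mmp9 ran from -1.645 to 0.149, and Tgfb1 from -0.46 to 0.123. Of 101 called genes followed through all 34 settings, 21 passed in the 18 fits with 1 array left out, and Timp3 alone passed in all 34.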
